A study of Homo sapiens with 16 samples.

Results

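The 44 genes described here make, use or answer to phosphatidic acid and diacylglycerol: 2 of the phospholipase D family, 5 phosphatidate phosphatases, 3 acyltransferases, 8 diacylglycerol kinases, 9 of the phospholipase C family, 8 protein kinases C, 3 protein kinases D, 3 enzymes of CDP-diacylglycerol and phosphatidylinositol synthesis, and 3 PLAAT phospholipase and acyltransferase genes. They were chosen by gene symbol as handlers of the lipid that glycosylphosphatidylinositol-specific phospholipase D (GPI-PLD) releases. The choice was made with earlier results of these data known. All 44 had a probe set on the array, 78 of its 22283 probe sets, out of 11963 genes with a probe set of a single symbol. The cells were HepG2, an established human hepatoma line, given a recombinant adenovirus that expressed either GPI-PLD or LacZ, the beta-galactosidase control, and kept in culture for 6 h or 12 h. There were 4 arrays for each virus and time, 16 in all, each made from 10 µg of total RNA, and every group carried an adenovirus, so that no group shows uninfected cells. Nothing in the labels ties the 4 arrays of a group to separate cultures, and p-values therefore measure only how these arrays spread, which may be technical. The groups are named by their labels throughout.

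GPI-PLD cuts the lipid anchor that holds many proteins on the outer face of the cell and leaves phosphatidic acid in the membrane. Phosphatidate phosphatases turn phosphatidic acid into diacylglycerol, and diacylglycerol kinases turn it back. Phospholipases C make diacylglycerol from phosphoinositides, and diacylglycerol recruits and activates most protein kinases C, which in turn activate the protein kinases D. In liver cells the same lipids are the branch point between triglyceride and membrane phospholipid synthesis. The array measured the transcripts of these genes, not the lipids or the enzyme activities, and in RNA from whole cultures fewer cells with a transcript cannot be told apart from less transcript per cell.

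No member was called between the viruses at either time at an adjusted p under 0.05, and neither was any other gene. Between the times 2 members were called, in a comparison added after the other values were seen. They were 6.25% of the members tested, below the 16.1% of all genes. Of the 44 genes, 32 were tested, which is 72.7% of the members against 67.7% of all genes. A gene was tested on its brightest probe set where the mean over all arrays reached 188. That mean was taken over log2(signal + 62.7) and turned back into a signal, which puts it below the plain mean. DGKZ, with a plain mean of 206.7, had 179.8 by this measure and was not tested. A difference is given as log2(signal + 62.7), as the estimate ± standard error (SE), and its fold is on the same scale, which understates the change of a dim gene. The 12 members under the signal limit were PLPP2, DGKB, DGKE, DGKI, DGKQ, DGKZ, PLCB4, PLCE1, PLCL1, PRKCD, PRKD1 and CDS1. More of the diacylglycerol kinases than of any other role were among them, 5 of 8. Every role kept at least 2 members for the test.

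The transcript of the enzyme itself, GPLD1, did not separate the viruses on any of its 5 probe sets, with an adjusted p of at least 0.913 over both times. The smallest unadjusted p (limma, 0.0122) was at 6 h on a probe set far under the signal limit. Its means were 25.07 with LacZ and 71.55 with GPI-PLD, and the arrays overlapped. At 12 h its log2 difference was 0.07 ± 0.22. The labels do not say which part or species of the gene the virus carried, so these probe sets neither bear out the labels nor go against them. Signals of each array had a median between 304.5 and 377.6. Correlations between arrays of 1 group ran from 0.936 to 0.96 (Pearson, log2 scale, all probe sets outside controls), and the GPI-PLD arrays at 12 h were the least alike, at 0.936 to 0.94. Of 13 hepatocyte markers, 12 were on the array, and all 12 lay in the top 10% of probe sets by level. Kidney epithelium markers passed the signal limit in 0 of 3 genes on the array, endothelial markers in 1 of 5, erythroid in 1 of 2, leukocyte in 2 of 4 and fibroblast in 5 of 7.

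At 6 h the first comparison asked whether cells with the GPI-PLD virus differed from cells with the LacZ virus in these genes. Of the 32 members tested, 15 measured higher and 17 lower with GPI-PLD, and their median log2 difference was -0.014, against 0.0035 over all genes. The fit with limma called 0 members and 0 of 8102 genes (0.0%). At an unadjusted p under 0.05 there were again 0 members, against 376 genes (4.64%), and 0 members had groups that did not overlap, against 245 genes (3.02%). For 21 of the 32 members the 95% interval lay within a 2-fold difference in either direction, a smaller share than the 87.4% of all genes. The median reach of a member's interval on either side of its estimate was 0.37 on the log2 scale, a fold of 1.3. Those 21 included both lipins, all 3 acyltransferases, both tested CDP-diacylglycerol and phosphatidylinositol genes and both tested protein kinases D.

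At 12 h the members were again balanced, with 16 higher and 16 lower with GPI-PLD and a median log2 difference of -0.0051 against 0.0062 over all genes. The limma fit called 0 members and 0 of 8102 genes (0.0%). Without adjustment, 5 members were under 0.05, against 585 genes (7.22%). These were PLAAT2 and PRKCE, higher with GPI-PLD, and PLAAT3, PRKCZ and PRKCQ, lower. In PLAAT2 and PLAAT3 the 4 arrays of one virus lay wholly apart from those of the other, 2 of 32 members against 323 genes (3.99%). The intervals of 22 of the 32 members lay within 2-fold, again a smaller share than the 86.0% of all genes. Wider intervals belonged to DGKA, DGKG, PLAAT2, PLAAT3, PLCB3, PLCD1, PRKCB, PRKCE, PRKCH and PRKCQ.

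**Figure D1:**
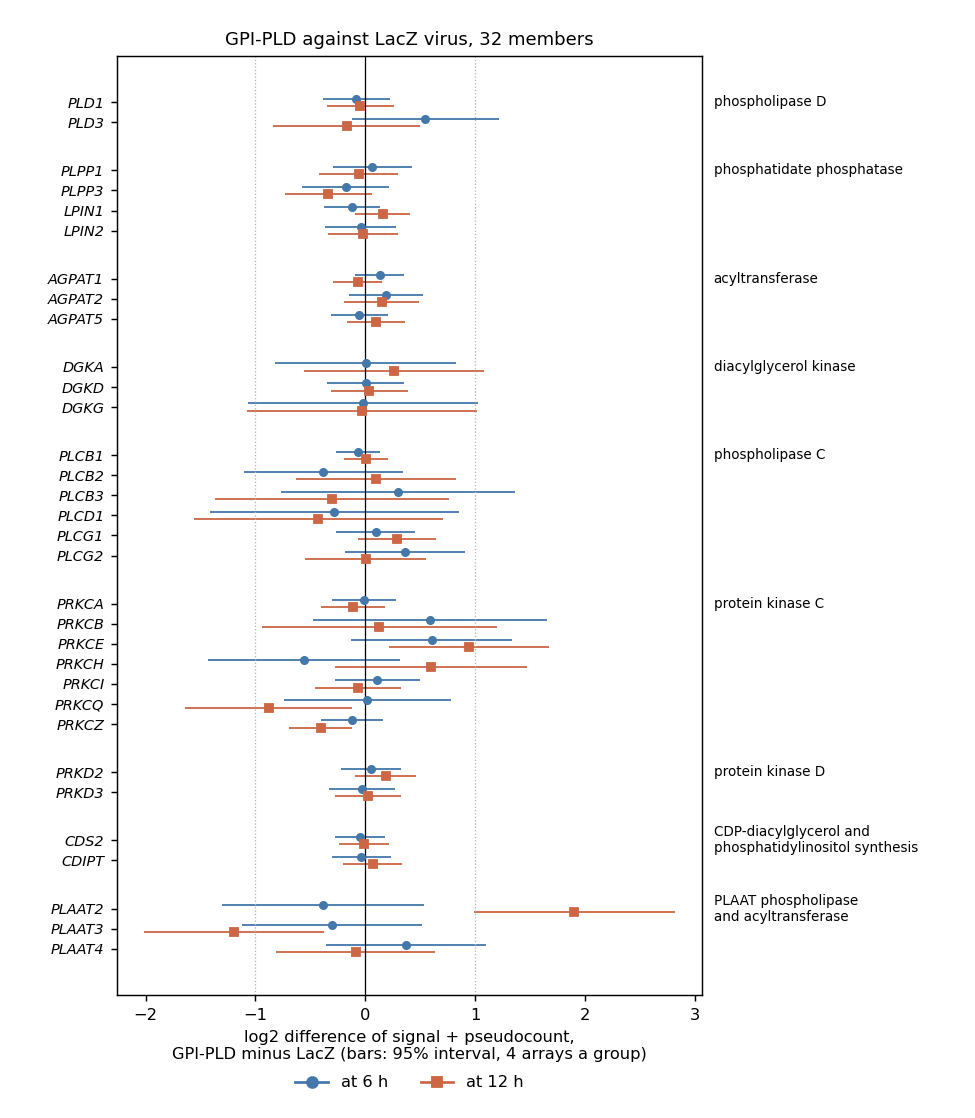
Log2 difference between GPI-PLD and LacZ cells for each of the 32 members tested, grouped by role, at 6 h (circles) and 12 h (squares). Bars are 95% intervals, dotted lines mark a 2-fold difference, and the points of PLAAT2 (1.91) and PLAAT3 (-1.20) at 12 h lie farthest from 0.

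Among the enzymes that make or remove phosphatidic acid at membranes, neither member of the phospholipase D family was called. PLD1, the classical signalling phospholipase D, measured 1207 ± 183 with LacZ and 1129 ± 58.1 with GPI-PLD at 6 h (mean ± SD of the signal, n = 4). At 12 h the means were 1218 ± 119 and 1197 ± 258. Its log2 differences were -0.08 ± 0.15 and -0.045 ± 0.15. PLD3 belongs to the same family by sequence and is known as an exonuclease of lysosomes. At 6 h PLD3 read 643, 501, 945 and 188 in the LacZ arrays and 809, 704, 871 and 667 in the GPI-PLD arrays. All 4 GPI-PLD arrays were close together and inside the spread of the LacZ arrays, whose lowest was far under the others. The difference was 0.55 ± 0.32 (adjusted p = 0.998), and it was 0.16 without that lowest array, LacZ replicate 4. At 12 h PLD3 read 768, 435, 744 and 1122 with LacZ and 978, 443, 623 and 627 with GPI-PLD, a difference of -0.17 ± 0.32 in the other direction.

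Of the phosphatidate phosphatases, PLPP1 and PLPP3 work on lipid phosphates at the outer face of the plasma membrane. PLPP3 had the larger difference. Its LacZ arrays at 12 h read 5305, 5869, 4096 and 4978, and its GPI-PLD arrays 4636, 2286, 4880.3 and 4775. One GPI-PLD array stood far below the other 3, which themselves lay inside the LacZ range. At 6 h PLPP3 read 5246, 4933, 5719 and 5445 with LacZ and 3978, 4192, 4684 and 6249.6 with GPI-PLD. Averaged over both times the difference was -0.26 ± 0.13, a fold of 1.20 lower (unadjusted p = 0.0702, adjusted p = 0.997). The other 2 probe sets of PLPP3 gave -0.26 and -0.0078 for the same comparison. PLPP1 differed by 0.066 ± 0.17 at 6 h and -0.06 ± 0.17 at 12 h. LPIN1 and LPIN2, the lipins that make diacylglycerol for lipid synthesis inside the cell, differed between the viruses by at most 0.16 in size at either time.

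The acyltransferases add the last fatty acid that turns lysophosphatidic acid into phosphatidic acid. AGPAT1, which works at the endoplasmic reticulum, read 2220, 2524, 2199.7 and 1998 in LacZ and 2561, 2595, 2365 and 2287 in GPI-PLD arrays at 6 h. The groups overlapped, and the difference was 0.13 ± 0.11 (adjusted p = 0.998). Its 12 h arrays read 2022, 2334, 2404 and 2820.4 with LacZ and 2009, 2328, 2491 and 2258 with GPI-PLD, with a difference of -0.069 ± 0.11. The 95% interval of AGPAT1 at 12 h, 0.816- to 1.11-fold, was among the narrowest of the members. AGPAT2, whose loss causes lipodystrophy, differed by 0.19 ± 0.16 and 0.15 ± 0.16, and AGPAT5, known at mitochondria, by -0.052 ± 0.13 and 0.099 ± 0.13, at 6 h and 12 h in turn.

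The 3 diacylglycerol kinases tested, DGKA, DGKD and DGKG, differed between the viruses by -0.021 to 0.0059 at 6 h. At 12 h DGKA stood at 0.26 ± 0.40, DGKD at 0.037 ± 0.17 and DGKG at -0.028 ± 0.51. Their precision was unequal: the 12 h interval of DGKD ran from 0.804- to 1.31-fold and that of DGKG from 0.474- to 2.03-fold. A doubling of DGKG could therefore not be told from no difference with these arrays.

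In the phospholipase C family, PLCB1, PLCB2 and PLCB3 are driven by G proteins, PLCG1 and PLCG2 by tyrosine kinases, and PLCD1 by calcium. PLCB1 was the most precise, with differences of -0.066 ± 0.10 at 6 h and 0.011 ± 0.10 at 12 h. PLCG2 read 337, 329.8, 211 and 528 in LacZ and 712, 353, 265 and 593 in GPI-PLD arrays at 6 h. Its groups overlapped broadly, and the difference was 0.36 ± 0.27 (adjusted p = 0.998). At 12 h the same gene read 470.1, 663, 449.5 and 464 with LacZ and 496, 405, 591 and 553 with GPI-PLD, means of 512 and 511. PLCG1 differed by 0.096 ± 0.17 and 0.29 ± 0.17, PLCB2 by -0.38 ± 0.35 and 0.098 ± 0.35, PLCB3 by 0.30 ± 0.51 and -0.30 ± 0.51, and PLCD1 by -0.28 ± 0.54 and -0.43 ± 0.54, at 6 h and 12 h in turn. The last 2 had intervals that reached past 2-fold at both times.

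The protein kinases C held 3 of the 5 members with an unadjusted p under 0.05 at 12 h, from 2 classes of the family and in both directions. PRKCE belongs to the class of kinases C that answer to diacylglycerol without calcium. PRKCE read 421, 109.7, 156 and 344 in LacZ arrays at 12 h and 331, 632, 475 and 630 in GPI-PLD arrays. The lowest GPI-PLD array lay below the highest 2 LacZ arrays, so the groups overlapped. The means were 258 ± 149 and 517 ± 144 (SD, n = 4), a difference of 0.94 ± 0.35 or 1.92-fold (unadjusted p = 0.0136, adjusted p = 0.628). At 6 h PRKCE read 369.6, 484, 128 and 185 with LacZ and 601, 389, 443 and 331 with GPI-PLD, with a difference of 0.61 ± 0.35 in the same direction (adjusted p = 0.998). PRKCE had a single probe set on the array.

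PRKCZ is an atypical kinase C, which does not need diacylglycerol. PRKCZ read 1909.9, 1606, 2557 and 2486 in the LacZ arrays at 12 h and 1519.5, 1822, 1314 and 1672 in the GPI-PLD arrays. In 3 of the 4 LacZ arrays it was above every GPI-PLD array, and the fourth lay inside the GPI-PLD range. The difference was -0.41 ± 0.14, 1.33-fold lower with GPI-PLD (unadjusted p = 0.00695, adjusted p = 0.516). The 6 h arrays of PRKCZ read 1488, 1757, 1682 and 1798 with LacZ and 1386, 1731, 1566 and 1485 with GPI-PLD, with a difference of -0.12 ± 0.14. The GPI-PLD means of PRKCZ were alike at both times, 1542 and 1582, and its LacZ mean was 1681 at 6 h and 2140 at 12 h.

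PRKCQ, of the same calcium-independent class and best known from T cells, read 568, 535, 384 and 462 in LacZ arrays at 12 h and 69.4, 468, 136 and 490.1 in GPI-PLD arrays. A pair of GPI-PLD arrays were far below all the rest, and the other pair lay inside the LacZ range. The difference of -0.88 ± 0.37 (unadjusted p = 0.025, adjusted p = 0.663) thus came with an SD of 219 among the GPI-PLD arrays, against 81.9 among the LacZ arrays. At 6 h PRKCQ read 495, 436, 547 and 213 with LacZ and 424, 549.7, 324 and 366 with GPI-PLD, a difference of 0.02 ± 0.37. The second probe set of PRKCQ differed by -0.47 at 12 h and -0.31 at 6 h.

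PRKCH, of the calcium-independent class and known in epithelia, had opposite signs at the 2 times. At 6 h PRKCH read 249, 338, 167 and 204 with LacZ and 61.3, 143, 125 and 281 with GPI-PLD (-0.56 ± 0.42, adjusted p = 0.998). At 12 h it read 259, 42.7, 292 and 132 with LacZ and 340.1, 224, 158 and 420.2 with GPI-PLD (0.60 ± 0.42, adjusted p = 0.774). Arrays of the 2 viruses overlapped at both times. Its other probe set, under the signal limit, gave -0.45 and 0.47, the same signs. The difference between the times, 1.15 ± 0.60, had an unadjusted p of 0.0652 and an adjusted p of 0.686. Of the remaining kinases, PRKCA, a conventional form that needs calcium and diacylglycerol, differed by -0.007 ± 0.14 and -0.11 ± 0.14. PRKCB, the other conventional form tested, differed by 0.59 ± 0.51 and 0.13 ± 0.51, and the atypical PRKCI by 0.11 ± 0.19 and -0.065 ± 0.19. The protein kinases D followed at 0.055 ± 0.13 and 0.19 ± 0.13 for PRKD2, and -0.028 ± 0.15 and 0.024 ± 0.15 for PRKD3. CDS2, which makes CDP-diacylglycerol from phosphatidic acid, stood at -0.049 ± 0.11 and -0.013 ± 0.11, and CDIPT, which makes phosphatidylinositol from that product, at -0.036 ± 0.13 and 0.067 ± 0.13.

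The PLAAT genes encode small enzymes that cut a fatty acid from a phospholipid or pass it to another lipid. PLAAT4, PLAAT2 and PLAAT3 follow each other on chromosome 11 without another protein-coding gene between them, per RefSeq's GRCh38.p14 annotation. PLAAT2 and PLAAT3 had the smallest p of all members at 12 h, in opposite directions. PLAAT2 read 52.5, 202, 65.6 and 45.5 in the LacZ arrays at 12 h and 694, 398, 399.7 and 456 in the GPI-PLD arrays. Every GPI-PLD array exceeded every LacZ array, of which 1 stood well above the other 3. The means were 91.4 ± 74.2 and 487 ± 141 (SD, n = 4), and the difference of 1.91 ± 0.44, or 3.75-fold (95% interval 1.98 to 7.09), had an unadjusted p of 0.000283 and an adjusted p of 0.345. Over 18 alternative settings that difference ran from 0.75 to 2.66, and its adjusted p from 0.183 to 0.539.

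At 6 h PLAAT2 read 96.8, 413, 321 and 261 with LacZ and 278, 165, 362 and 34.9 with GPI-PLD, with broad overlap and a difference of -0.39 ± 0.44. Its LacZ mean at 12 h, 91.4, was below the signal limit that the gene passed over all 16 arrays. The other 2 probe sets of PLAAT2, both under the limit, did not show the same size, with 0.36 and -0.03 at 12 h. PLAAT3 read 321, 268, 283 and 391 in LacZ arrays at 12 h and 64.9, 121, 193 and 57.9 in GPI-PLD arrays. All 4 GPI-PLD arrays lay below all 4 LacZ arrays. The difference was -1.20 ± 0.40, 2.29-fold lower (unadjusted p = 0.00619, adjusted p = 0.497). PLAAT3 passed the limit at a mean of 196 taken on the log2 scale, against a plain mean of 220.4. Its plain group means at 12 h were 316 with LacZ, its highest, and 109 with GPI-PLD, below the limit. The group where each of the 2 genes was high thus helped it into the test. Their separation at 12 h is described here and is not support for an effect. At 6 h PLAAT3 read 421, 73.0, 351 and 235 with LacZ and 174, 135, 150.1 and 288 with GPI-PLD (-0.30 ± 0.40). PLAAT4, an interferon- and retinoid-responsive relative, differed by 0.37 ± 0.35 at 6 h and -0.085 ± 0.35 at 12 h. PLAAT3 and PLAAT4 had a single probe set each.

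**Figure D2:**
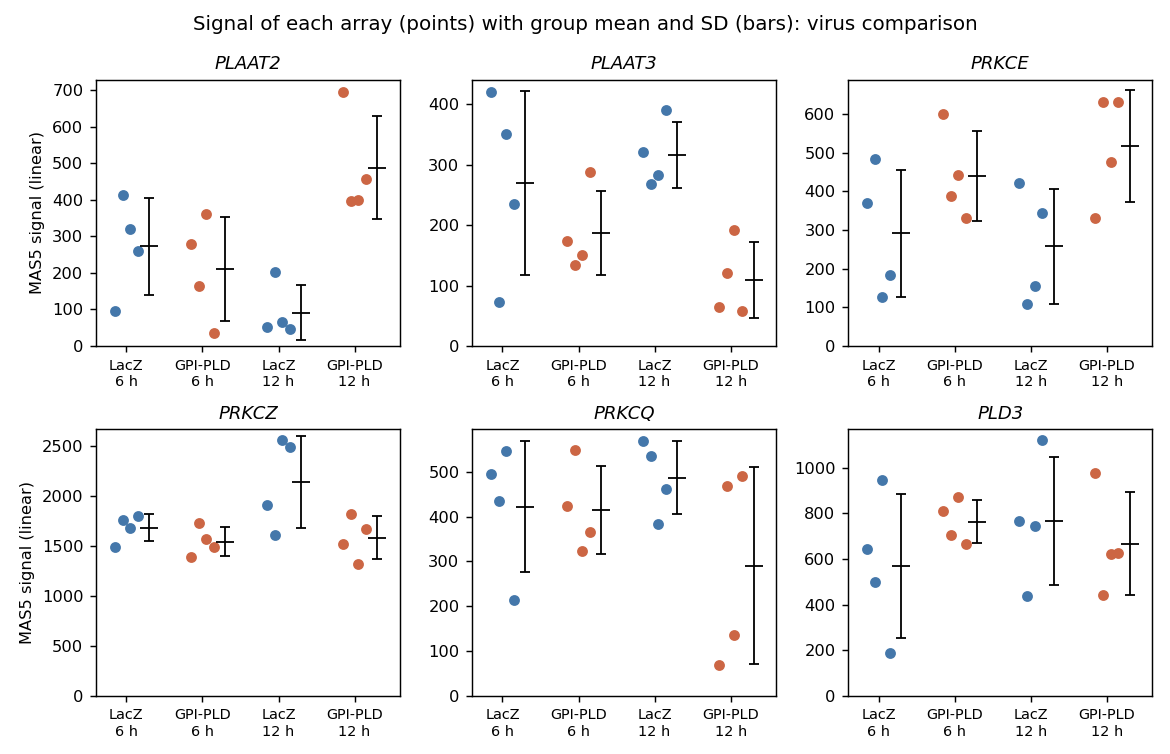
Signal of each array (linear scale) for PLAAT2, PLAAT3, PRKCE, PRKCZ, PRKCQ and PLD3 in the 4 groups, with the mean and SD of 4 arrays beside the points. The LacZ and GPI-PLD points do not overlap at 12 h in PLAAT2 (up to 202 against at least 398) and PLAAT3 (at least 268 against up to 193), and overlap in the other 4 genes.

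Averaged over both times, with 8 arrays a virus, 18 members measured higher and 14 lower with GPI-PLD. The limma fit called 0 members and 0 genes (0.0%), and at an unadjusted p under 0.05 there were 4 members against 340 genes (4.2%). These 4 were PRKCE (0.77 ± 0.25) and PLAAT2 (0.76 ± 0.31), higher, and PRKCZ (-0.26 ± 0.10) and PLAAT3 (-0.75 ± 0.28), lower, each with an adjusted p of 0.997. The averaging narrowed the intervals, and those of 27 of the 32 members then lay within 2-fold, still a smaller share than the 97.0% of all genes. Exceptions were PLAAT2, PLAAT3, PLCD1, PRKCB and PRKCE.

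The difference of the virus effect between 12 h and 6 h tests whether the enzyme virus acted unequally at the 2 times. It called 0 members and 1 of 8102 genes (0.0123%), and at an unadjusted p under 0.05 1 member against 610 genes (7.53%). That member was PLAAT2, at 2.29 ± 0.63 (adjusted p = 0.376). The next members by p after PLAAT2 and PRKCH were PRKCQ at -0.90 ± 0.52 (adjusted p = 0.711), LPIN1 at 0.28 ± 0.17 and PLAAT3 at -0.90 ± 0.56. For LPIN1 the sign of the virus difference was negative at 6 h (-0.12 ± 0.12) and positive at 12 h (0.16 ± 0.12).

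The second question of the design was how the cells changed between 6 h and 12 h, under each virus. In LacZ cells 17 members measured higher and 15 lower at 12 h, with a median log2 difference of 0.052 against 0.0051 over all genes. The limma fit called 0 members, against 558 of 8102 genes (6.89%). At an unadjusted p under 0.05 there were 5 members against 1634 genes (20.2%), and 0 members had times that did not overlap, against 1049 genes (12.9%). In GPI-PLD cells 15 measured higher and 17 lower, with a median of -0.024 against 0.013. The fit called 0 members there as well, against 784 genes (9.68%), with 5 members under an unadjusted 0.05 against 1844 genes (22.8%). All 5 of these, DGKA, LPIN1, LPIN2, PLAAT2 and PLCB1, were higher at 12 h. The arrays of the 2 times did not overlap for LPIN1 and PLAAT2 in GPI-PLD cells, 2 members against 1285 genes (15.9%). The share of members called was thus below that of all genes under both viruses.

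A comparison of 12 h with 6 h averaged over both viruses, 8 arrays against 8, was added after the other values had been seen. It called 2 members, against 1306 genes (16.1%), and 7 members under an unadjusted 0.05 against 2284 genes (28.2%). LPIN2 rose and AGPAT5 fell. Leaving out LacZ replicate 3 at 12 h gave a count of 1 (LPIN2), leaving out LacZ replicate 2 at 6 h a count of 4, and leaving out GPI-PLD replicate 2 at 12 h a count of 5. Both shares, 6.25% and 21.9% of the members, were below those of all genes. The intervals of 28 of the 32 members lay within 2-fold here, against 94.0% of all genes.

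LPIN2 encodes lipin 2, the lipin most associated with the liver. In LacZ arrays LPIN2 read 1219.8, 1557, 1163 and 992 at 6 h and 1529.5, 1786, 1673 and 1460.1 at 12 h. With the GPI-PLD virus it read 1109, 1667, 1094 and 965 at 6 h and 1496, 1713, 1857 and 1324 at 12 h. Under each virus 1 array at 6 h, replicate 2, lay among the 12 h arrays, and the other 3 lay below them. The differences were 0.38 ± 0.16 with LacZ and 0.40 ± 0.16 with GPI-PLD (adjusted p = 0.16 and 0.111). The second of these passed the threshold in 1 of 19 alternatives, without GPI-PLD 6 h replicate 2 (0.56, adjusted p = 0.0219). Its lowest value over the 19 was 0.26, and its highest adjusted p 0.372. Averaged over the viruses LPIN2 rose by 0.39 ± 0.11, 1.31-fold (95% interval 1.12 to 1.54, adjusted p = 0.0153). The call held in 25 of 26 alternative settings and was lost where averaging over a gene's probe sets replaced the brightest (0.29, adjusted p = 0.1). The second probe set of LPIN2 had the same sign, at 0.26 and 0.11.

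LPIN1, the lipin that responds to fasting in liver, was highest in GPI-PLD cells at 12 h. With GPI-PLD it read 971, 875, 951 and 914 at 6 h and 1253, 1061, 1279 and 1274 at 12 h. All 12 h arrays were above all 6 h arrays, and 3 of the 4 lay close together above the fourth. The difference was 0.37 ± 0.12, 1.29-fold (unadjusted p = 0.00643, adjusted p = 0.0607). It passed the threshold in 4 of 19 alternatives, among them without replicate 2 of GPI-PLD at 12 h (0.43, adjusted p = 0.0384). In LacZ cells LPIN1 read 953, 1202, 893 and 1026 at 6 h and 1076, 994, 1195 and 1064 at 12 h, with overlap and a difference of 0.087 ± 0.12. The other 2 probe sets of LPIN1 differed by 0.43 and 0.26 in GPI-PLD cells and by 0.26 and -0.27 in LacZ cells.

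The sequences upstream of the lipin genes are shown because LPIN2 was called with time averaged over the viruses and LPIN1, which was not called, is the other lipin among the members. Each is the 250 bases before an annotated start, on the gene's own strand, 5′ to 3′, from RefSeq (GRCh38.p14). LPIN2 has 2 such starts, at chr18:3011948-3012197 (minus strand, 34.8% G and C) and chr18:3013145-3013394 (minus strand, 83.6% G and C). The capitals in the second mark an E-box, CACGTG, that begins 210 bases before the start (-210). For LPIN1 the first listed start is shown, chr2:11746382-11746631 (plus strand, 72.4% G and C), which holds none of the motifs searched.
LPIN2 start 1: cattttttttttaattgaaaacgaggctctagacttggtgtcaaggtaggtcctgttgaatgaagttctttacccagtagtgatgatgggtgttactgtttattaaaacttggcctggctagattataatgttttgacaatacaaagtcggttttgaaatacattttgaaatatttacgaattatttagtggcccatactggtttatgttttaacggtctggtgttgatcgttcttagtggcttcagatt
LPIN2 start 2: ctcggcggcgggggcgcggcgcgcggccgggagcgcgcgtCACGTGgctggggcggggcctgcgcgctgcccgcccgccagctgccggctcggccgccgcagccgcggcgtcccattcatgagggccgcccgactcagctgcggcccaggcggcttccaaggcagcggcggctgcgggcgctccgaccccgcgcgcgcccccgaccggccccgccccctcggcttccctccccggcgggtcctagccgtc
LPIN1 start 1: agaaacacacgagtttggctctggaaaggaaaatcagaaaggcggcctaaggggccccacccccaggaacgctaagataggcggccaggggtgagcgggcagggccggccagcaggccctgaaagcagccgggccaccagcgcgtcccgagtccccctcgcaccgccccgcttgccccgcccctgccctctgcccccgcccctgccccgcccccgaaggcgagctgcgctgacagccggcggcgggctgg

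Windows of 250 bases before to 50 after a start were given for 35 of the 44 members, 64 windows of 35116 in all. The 5 motifs were searched on both strands. The phorbol ester element TGANTCA, bound by AP-1 factors, was in the windows of 1 member, AGPAT1, against 7.44% of the tested genes with a window and 7.71% of all windows. The cyclic AMP element TGACGTCA was in those of PRKCZ (1.85% of all windows and 3.94% of the tested genes), and the C/EBP-ATF element TGATGNAA in those of PLCE1 (3.62% and 2.98%). Each of these 3 elements was thus in 2.86% of the 35 members. The E-box CACGTG was in those of DGKB, LPIN2 and PLD3, 8.57% of the 35 members against 13.0% of the tested genes and 7.26% of all windows. The sterol element TCACNCCAC was in 0 member windows, against 1.13% of all. These shares are of unlike sets. The 35 members include some under the signal limit, such as DGKB and PLCE1, which the tested genes do not. A gene can also have several windows. A match is a description of these letters only.

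AGPAT5 is the acyltransferase known at mitochondria. With the LacZ virus AGPAT5 read 2688, 2017, 2023 and 2549 at 6 h and 2037, 1722, 1557 and 1760.2 at 12 h. With the GPI-PLD virus it read 2408, 2278, 2058 and 2137 at 6 h and 2225, 1907, 2035 and 1476 at 12 h. The times overlapped under both viruses, each by 1 array at 12 h, replicate 1, that lay inside the 6 h range. The difference was -0.37 ± 0.13 in LacZ (adjusted p = 0.0819) and -0.22 ± 0.13 in GPI-PLD cells (adjusted p = 0.309). Averaged over the viruses AGPAT5 fell by 0.30 on the log2 scale, SE 0.09, or 1.23-fold (adjusted p = 0.0242). The call held in 19 of 26 alternatives, with an adjusted p up to 0.059 in the others. Each of 5 arrays ended the call when left out. At 6 h these were LacZ replicates 1 and 4 (0.059 and 0.0501) and GPI-PLD replicate 1 (0.0529), and at 12 h LacZ replicate 3 (0.0569) and GPI-PLD replicate 4 (0.0562), the adjusted p standing in brackets. AGPAT5 had a single probe set.

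The next 5 members by p in the averaged comparison did not pass the threshold, and are given as chosen after their values were seen. DGKA turns diacylglycerol into phosphatidic acid. In LacZ cells DGKA read 403, 393, 338 and 60.9 at 6 h and 511, 505, 338 and 459.5 at 12 h. With the GPI-PLD virus DGKA read 364, 401, 304 and 83.4 and 688, 579.5, 298 and 753. Replicate 4 at 6 h was by far the lowest array under either virus. The averaged difference was 0.80 ± 0.28 (adjusted p = 0.0534), and that of its other probe set, under the signal limit, 0.58. DGKA passed the threshold without any 1 of LacZ 6 h replicates 1 and 2, GPI-PLD 6 h replicates 1 and 2 and GPI-PLD 12 h replicate 3, with an adjusted p between 0.0249 and 0.0493. It passed in 7 of 25 alternatives in all. Over these 25 the difference ran from 0.52 to 1.03 and the adjusted p reached 0.118.

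PRKD3, a kinase that acts downstream of protein kinases C, read 1019, 1146, 969 and 1375 at 6 h and 1141, 879, 831 and 745 at 12 h with LacZ. The GPI-PLD arrays of PRKD3 read 1107, 1087, 1108 and 1078 at 6 h, within an SD of 15.1, and 913, 1081, 900.4 and 750.3 at 12 h. One 12 h LacZ array reached the 6 h range, and 1 GPI-PLD array did too. The averaged difference was -0.29 ± 0.10 (adjusted p = 0.0618), and its other probe set gave -0.39. With LacZ replicate 3 at 6 h left out the adjusted p of PRKD3 was 0.045, with LacZ replicate 1 at 12 h left out 0.0236, and with GPI-PLD replicate 2 at 12 h left out 0.0337. PRKD3 passed in 7 of 26 alternatives in all, with an adjusted p up to 0.13. PLCB1 differed by 0.18 ± 0.07 (adjusted p = 0.0757), with opposite signs on its other 2 probe sets (-0.13 and -0.088). PLCB1 read 3419, 3128, 3157 and 3822 at 6 h and 4057, 4018, 3709 and 3203 at 12 h with LacZ. Under GPI-PLD it read 3013, 3254, 3243 and 3365 and 3848, 3845, 4090.2 and 3297, again with 1 low 12 h array, replicate 4, in each virus. PLCB1 passed without replicate 4 of LacZ at 6 h, of LacZ at 12 h or of GPI-PLD at 12 h, with an adjusted p between 0.0311 and 0.0381. That gene passed in 4 of 26 alternatives in all, with an adjusted p up to 0.962. LPIN1 followed at 0.23 ± 0.09 and PLCG1, which answers to growth factor receptors, at -0.25 ± 0.12 (adjusted p = 0.0785 and 0.174). The adjusted p of LPIN1 was 0.0395 when LacZ replicate 2 at 6 h was left out, and 0.0469 when GPI-PLD replicate 2 at 12 h was. LPIN1 passed in 3 of 26 alternatives in all, with an adjusted p up to 0.259. With LacZ, PLCG1 read 1134, 1403, 1253 and 1398 at 6 h, then 874, 985, 1149 and 1006. With GPI-PLD it read 1444, 1752, 1238 and 1174 at 6 h, then 1437, 1682, 791 and 1209. In LacZ cells 3 of the 4 arrays at 12 h lay below every 6 h array, and the GPI-PLD arrays of the 2 times overlapped broadly.

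**Figure D3:**
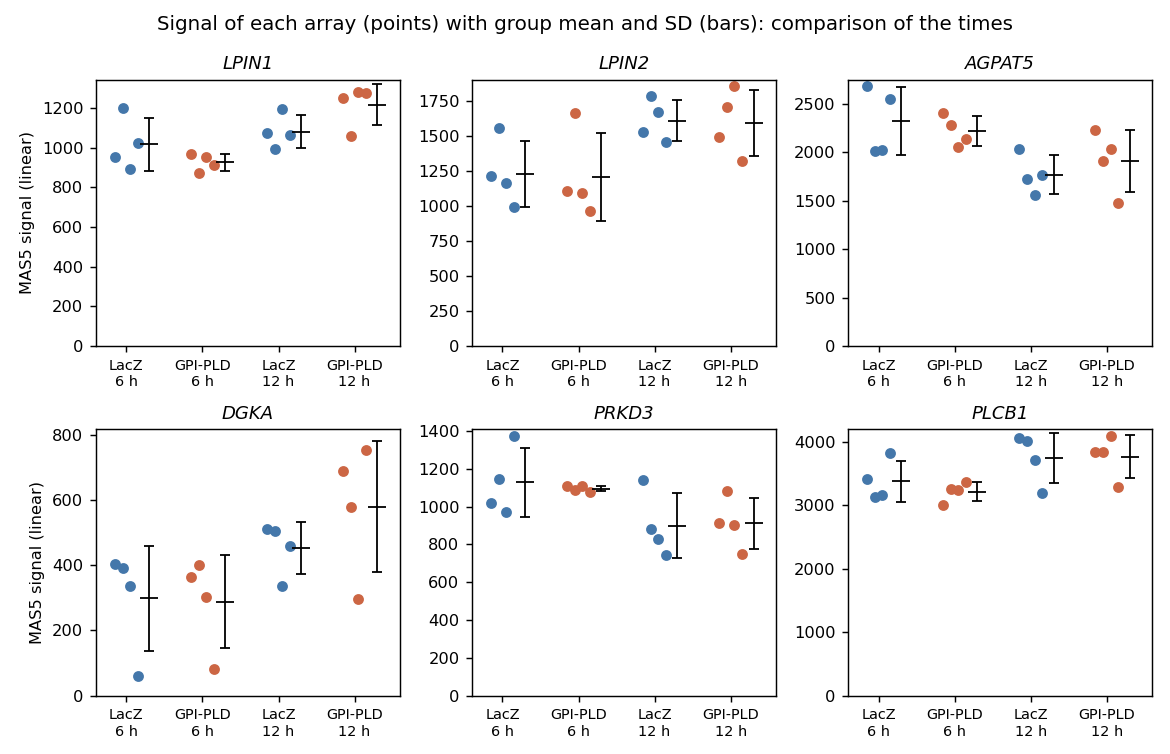
Signal of each array (linear scale) for LPIN1, LPIN2, AGPAT5, DGKA, PRKD3 and PLCB1 in the 4 groups, with the mean and SD of 4 arrays beside the points. LPIN2 is higher at 12 h (means of 1612 and 1597 against 1233 and 1209) and AGPAT5 lower (1769 and 1911 against 2319 and 2221) under LacZ and GPI-PLD in turn.

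PLAAT2 and PRKCZ also had an unadjusted p under 0.05 with time, without a call. In LacZ cells the PLAAT2 signals already listed gave a difference of -1.12 ± 0.44 (adjusted p = 0.148), and in GPI-PLD cells 1.17 ± 0.44 (adjusted p = 0.102), so that the averaged value was 0.028 ± 0.31. PRKCZ stood at 0.32 ± 0.14 in LacZ cells (adjusted p = 0.19) and 0.03 ± 0.14 in GPI-PLD cells. The other roles held differences with time of mixed sign. The protein kinases C ran from -0.43 to 0.32 in LacZ and from -0.67 to 0.73 in GPI-PLD cells, with 4 of 7 higher under each virus. The phospholipases C ran from -0.35 to 0.70 in LacZ cells, with 3 of 6 higher, and from -0.30 to 0.46 in GPI-PLD cells, with 4 of 6 higher. CDS2 and CDIPT differed by 0.10 ± 0.08 and -0.10 ± 0.09 on average over the viruses.

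Different probe sets of a member often disagreed, which bounds what any single value can carry. Of the 32 members, 14 had several probe sets past the signal limit. In 5 of the 14 all of them shared a sign for the virus difference at 6 h, and again in 5 at 12 h. For the difference with time they shared a sign in 8 of 14 in LacZ cells and 7 of 14 in GPI-PLD cells. PRKD3 was the 1 member whose probe sets shared a sign in all 7 comparisons, and LPIN2 shared it in each of the 3 comparisons of the times.

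Of the 12 members under the signal limit, the lowest and highest of 16 arrays were 9.5 and 180.6 for PLPP2, 6.5 and 203.3 for DGKB, and 14.2 and 80.3 for DGKQ. DGKE ran from 9.8 to 272.1, DGKI from 8.3 to 279.1, DGKZ from 21.1 to 338 and PLCL1, a relative of phospholipase C without its enzyme activity, from 7.1 to 298.9. PLCB4 reached 189.9 and PLCE1 189.6 on their brightest arrays. PRKD1 reached 255.4 and CDS1 459.6. PRKCD, a widely expressed kinase C of the calcium-independent class, had a single probe set with means of 125 with LacZ and 275 with GPI-PLD at 6 h, then 235 and 109.7 at the later time. None of the 12 was called where every probe set was fitted without the limit.

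The neighbours of these genes in the same pathways were read from 6 lists of symbols, written with earlier results of these data known. For the virus comparisons none of the lists held a called gene. Of other phosphatidic acid and diacylglycerol enzymes 47 were listed and 19 tested. At 6 h DGAT1, which turns diacylglycerol into triglyceride, had the smallest p of that list, at 1.43 ± 0.30 (adjusted p = 0.328), and at 12 h CEPT1, of phospholipid synthesis, at -0.16 ± 0.15. Of 27 other phospholipase C and phosphoinositide genes tested, ITPR2, a calcium channel opened by inositol trisphosphate, led at 6 h (0.48 ± 0.17) and ITPKC, an inositol trisphosphate kinase, at 12 h (0.44 ± 0.17). Among 25 kinase C effectors, anchors and other diacylglycerol receptors, AKAP12, a kinase C anchor, led at 6 h (-0.32 ± 0.11) and MARCKS, a kinase C substrate, at 12 h (-0.17 ± 0.10). FOSL2 led the 29 phorbol ester and immediate early genes at 6 h (1.34 ± 0.29) and ODC1 at 12 h (0.19 ± 0.07). In the 4 lysophosphatidic acid genes tested LPAR6 led at 6 h (-0.096 ± 0.13) and LPAR1 at 12 h (0.33 ± 0.25), and in the 24 GPI anchor genes PGAP6 (0.35 ± 0.18) and PIGN (-1.02 ± 0.46). The adjusted p of these leading genes was at least 0.328.

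Between the times, 5 of the 6 lists held called genes. Phorbol ester and immediate early genes, a textbook response to kinase C activation that growth factors and stress share, held 15 called of 29 tested in LacZ cells and 11 of 29 in GPI-PLD cells, all of them higher at 12 h. These were 51.7% and 37.9% of the list, against 6.89% and 9.68% of all genes. As the list was written with earlier results of these data known, these shares are a description and not a test. The list's median change was 0.56 and 0.60, against 0.0051 and 0.013 over all genes and 0.052 and -0.024 over the 32 members. IER3, an early response gene, went from 10650 ± 723 to 24570 ± 1940 in LacZ cells (1.20 ± 0.09) and from 10430 ± 934 to 27430 ± 3250 in GPI-PLD cells (1.39 ± 0.09). MYC, a growth regulator, rose by 1.36 ± 0.12 and 1.26 ± 0.12. DUSP1, a phosphatase of MAP kinases, rose by 1.09 ± 0.10 and 1.30 ± 0.10, and PHLDA1 by 0.85 ± 0.08 and 0.99 ± 0.08, in LacZ and GPI-PLD cells in turn. No uninfected cells were measured, so the time in culture and the time after transduction cannot be told apart here.

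Of the 25 kinase C effectors and anchors, 2 were called with time under each virus, 8.0% each time, near the background of 6.89% with LacZ and 9.68% with GPI-PLD. SQSTM1, a scaffold that binds the atypical kinases C, rose by 0.86 ± 0.13 in LacZ and 0.86 ± 0.13 in GPI-PLD cells. MAPK3, a MAP kinase, rose by 0.84 ± 0.24 in LacZ cells and AKAP12 by 0.50 ± 0.11 in GPI-PLD cells. In the phosphoinositide list INPP1, an inositol phosphate phosphatase, rose under both viruses (0.48 ± 0.11 and 0.43 ± 0.11) and IMPA1, the inositol monophosphatase that lithium inhibits, in GPI-PLD cells (0.66 ± 0.12). These were 1 and 2 of 27 genes tested, 3.70% and 7.41% of that list, near the shares of all genes. Among the other phosphatidic acid and diacylglycerol enzymes 1 of 19 was called in LacZ cells, DGAT1 (1.17 ± 0.30), 5.26% of the list, and 0 in GPI-PLD cells, where LPCAT1 and LPCAT3, which acylate lysophospholipids, came first by p at -0.58 ± 0.19 and -0.41 ± 0.18 (adjusted p = 0.0546 and 0.154). Averaged over the viruses LPCAT3 was the 1 called, at -0.48 ± 0.12, 5.26% of the list against 16.1% of all genes. The GPI anchor list held PIGA, of the first step of anchor synthesis, which rose by 0.83 ± 0.17 and 0.54 ± 0.17, and DPM3, of dolichol phosphate mannose synthase, which changed by -0.78 ± 0.19 in GPI-PLD cells, 4.17% and 8.33% of that list under LacZ and GPI-PLD. The 4 lysophosphatidic acid genes held 0 called genes.

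**Figure D4:**
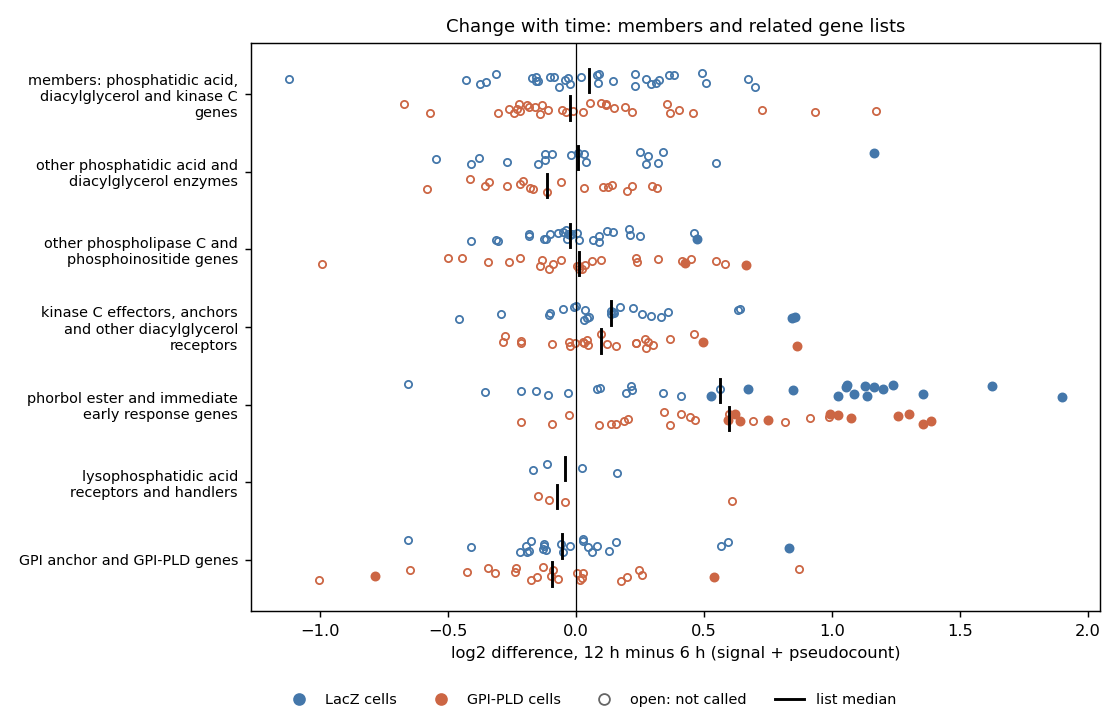
Log2 difference between 12 h and 6 h for the 32 members and for the genes tested of 6 related lists, 1 point a gene, in LacZ (upper row of each list) and GPI-PLD cells (lower row). Filled points passed an adjusted p of 0.05 and black bars are list medians, which lie near 0 for the members (0.052 and -0.024) and at 0.56 and 0.60 for the phorbol ester list.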

How the data were processed

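Signals of 22283 probe sets on 16 arrays of HepG2 cells were taken from the authors' deposited table, whose values are linear intensities, at or under 0 in 0 cells. The submitters' processing notes name MAS5 without a version; each array's trimmed mean was near 1000. The genome build was not given in the sources used here. Gene symbols came from the platform annotation: 19065 probe sets had 1 symbol, 1043 several and 2107 none, and those with several or none were left out.

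Before the log2 step 62.7, the 20th percentile over the whole table, was added to every signal. A gene took the probe set with its highest mean on this log2 scale. It was tested where that mean reached the 40th percentile (188 when turned back into a signal), which left 8102 genes. limma 3.58.1 (R 4.3.3) fitted the 4 groups together (lmFit, contrasts.fit, eBayes with trend and robust, 12 residual degrees of freedom), with Benjamini-Hochberg adjustment over all 8102 genes in each comparison. A gene was called at an adjusted p under 0.05. Intervals are 95%. The number of arrays, 4 in each group, limits the precision. The labels give no replicate numbers, batches or dates, so arrays were numbered within a group in deposited order and no block was fitted.

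Values of every array are given for members called in a comparison and for the 5 with the smallest p in each virus comparison. Of each related list, up to 4 called genes are named, or the leading genes by p where none was called. The members, the lists and the rule were chosen with earlier results of these data known. The averaged comparison of the times was added after the other values were seen. Cell type markers were read from lists of 13 hepatocyte, 7 fibroblast, 5 endothelial, 6 leukocyte, 4 kidney and 3 erythroid genes. Alternatives covered normalization, pseudocount, signal limit, choice of probe set, variance model, array weights, the arrays in the fit and leaving out each array.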

Additional observations from a re-analysis of the deposited data

Results flagged for a closer look

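Within the 4 groups of 4 arrays, the highest or lowest signal was set against the other 3 for the 17 members described array by array, 68 groups in all. In 4 of them the gap to the nearest array exceeded Dixon's 95% critical value for 4 arrays, where chance gives about 1 in 20, or 3.4 of 68. LPIN1 read 1061.4 on replicate 2 of GPI-PLD at 12 h, against 1252.5 to 1279.3 on the others. PLPP3 read 2286.1 on the same array, against 4635.5 to 4880.3. PLAAT2 read 201.9 on replicate 2 of LacZ at 12 h, against 45.5 to 65.6. PLCG2 read 663.2 on that array, against 449.5 to 470.1. Each pair fell on 1 array of the 12 h groups, and the part of these arrays in the results was not tested beyond the fits without each array.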

How the results depend on the processing

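Under every alternative run, the 4 comparisons of the viruses called 0 members. For 12 h against 6 h in LacZ cells the count of members, 0, became 1 (AGPAT5) with 75th percentile scaling and with array weights. In GPI-PLD cells the count of 0 became 1 with the signal limit at the 60th percentile, with eBayes without trend and robust and with array weights (LPIN1 each time), and with probe sets averaged within a gene (DGKA). Leaving out 1 array moved that count between 0 and 1. For the averaged comparison of the times, whose alternatives were also chosen after seeing the data, the count of 2 became 4 under quantile normalization (AGPAT5, LPIN2, PLCB1 and PRKD3) and 1 with all probe sets fitted, and it ran from 1 to 5 without 1 array. The PLCB1 difference in that comparison reversed to -0.012 with the mean of its probe sets, whose signs disagree. Over the other settings, 351 values of named members kept their direction and side of the threshold, 14 passed it newly and 3 lost it. With 1 array left out the numbers were 401, 15 and 5, and 0 reversed. No paired analysis was possible because the labels give no replicate numbers. Dim members varied widely between arrays (DGKA read from 60.9 to 753 over 16 arrays), the number of arrays limits the precision, and the causes of these shifts were not tested.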
